A study of Mus musculus with 4 samples.

Results

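The genes described here are 9 regulators tied to the silencing of embryonic globin genes in red cell precursors: the DNA-binding factors Sox6, Bcl11a, Zbtb7a, Myb, Ikzf1, Nr2c1 and Nr2c2, and the chromatin cofactors Mbd2 and Chd4. They were taken by gene symbol from the 56691 genes of the deposited tables, and each symbol matched 1 identifier. All 9 passed the filter on low counts and were tested. The data are poly(A) RNA counts from Ter119+ bone marrow cells of the mouse, with 2 libraries labelled Med16 KO and 2 labelled Med16 fl/fl. Both genotypes carry the time label of 3 weeks and the stage label erythroid. The titles of the Med16 KO libraries carry the letters DK, which no label explains, so the genotype is given here as its own label states it. MED16 sits in the tail of Mediator, a coactivator bridging transcription factors and RNA polymerase II, and fl/fl marks floxed alleles. The labels read here do not state the deleted exons, the driver of the deletion, the start of the 3 weeks, any pooling, or whether each library is 1 animal. The p-values therefore measure only how these 4 libraries spread, and that spread may be technical.

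Red cell precursors of the embryo express embryonic globin genes, which are switched off when adult globins take over. BCL11A and ZBTB7A (also called LRF) are the best known repressors that act in this switch in mouse and man. SOX6 binds the promoter of the mouse embryonic gene Hbb-y and works together with BCL11A, and the orphan nuclear receptors encoded by Nr2c1 and Nr2c2 (TR2 and TR4) bind repeated elements in embryonic globin promoters. MYB keeps erythroid progenitors dividing, and in man lower MYB activity goes with more fetal haemoglobin. IKZF1 (Ikaros) is a lymphoid and haematopoietic factor that also acts at globin loci. MBD2, which reads methylated CpG, and CHD4, a remodelling ATPase, belong to the NuRD corepressor complex that several of these factors recruit.

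The 250 bases before the start of both embryonic globin genes with an entry in the RefSeq promoter table are printed 5′ to 3′. Their build is GRCm38.p6, another build than the GRCm39 of the counts. Capitals mark, on either strand, TGACCA (the letters bound by BCL11A in human fetal globin promoters), the SOX letters ACAAAG or ACAATG, and the nuclear receptor half-site AGGTCA.
Hbb-y, chr7:103853208-103853457, minus strand: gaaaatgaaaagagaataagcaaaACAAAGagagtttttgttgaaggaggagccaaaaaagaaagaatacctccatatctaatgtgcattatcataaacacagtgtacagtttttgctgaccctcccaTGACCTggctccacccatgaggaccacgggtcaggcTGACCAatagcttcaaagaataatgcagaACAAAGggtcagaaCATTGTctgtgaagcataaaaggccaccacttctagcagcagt
Hba-x, chr11:32276350-32276599, plus strand: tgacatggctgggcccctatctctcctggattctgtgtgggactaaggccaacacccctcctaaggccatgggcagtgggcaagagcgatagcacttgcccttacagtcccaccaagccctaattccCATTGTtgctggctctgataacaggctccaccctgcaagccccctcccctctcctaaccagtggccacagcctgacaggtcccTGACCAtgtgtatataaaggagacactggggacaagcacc
The Hbb-y window held 1 TGACCA, which overlapped a CCAAT box, with 3 SOX matches and 1 half-site. The Hba-x window held 1 TGACCA and 1 SOX match. Of 32851 promoter windows of the same length, 11.4% held TGACCA, 25.2% a SOX match and 14% the half-site. A match of letters is a description and not a bound site.

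Members that changed are shown by the windows of Sox6, the largest fall, Zbtb7a, a smaller fall, and Chd4, the rise. Capitals mark, on either strand, the GATA letters AGATAA, the Krüppel-like factor letters CACCC and, in Sox6, the SOX letters above.
Sox6, chr7:116038745-116038994, minus strand: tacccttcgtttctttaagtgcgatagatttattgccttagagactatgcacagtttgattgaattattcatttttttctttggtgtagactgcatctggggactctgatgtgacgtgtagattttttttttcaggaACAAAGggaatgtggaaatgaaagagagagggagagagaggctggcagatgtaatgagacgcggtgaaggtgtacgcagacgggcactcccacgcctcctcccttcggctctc
Zbtb7a, chr10:81136021-81136270, plus strand: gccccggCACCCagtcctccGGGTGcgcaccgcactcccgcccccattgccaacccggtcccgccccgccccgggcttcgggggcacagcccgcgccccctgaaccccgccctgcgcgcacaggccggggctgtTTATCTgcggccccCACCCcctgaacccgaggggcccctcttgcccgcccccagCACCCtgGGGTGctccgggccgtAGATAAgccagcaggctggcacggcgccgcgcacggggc
Chd4, chr6:125095731-125095980, plus strand: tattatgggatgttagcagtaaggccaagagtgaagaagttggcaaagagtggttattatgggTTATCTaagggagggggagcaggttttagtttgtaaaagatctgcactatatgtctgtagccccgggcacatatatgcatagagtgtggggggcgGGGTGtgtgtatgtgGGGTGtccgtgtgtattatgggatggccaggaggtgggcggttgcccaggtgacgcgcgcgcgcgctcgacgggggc
Zbtb7a held 2 GATA and 5 CACCC matches, and Chd4 held 1 and 2. Sox6 has 6 annotated windows and Chd4 has 2, and the most upstream is shown. In Sox6 neither GATA nor CACCC letters were found, and 1 SOX match was. Of the other members with a window, Bcl11a, Ikzf1, Nr2c1 and Nr2c2 held 2 CACCC matches each and Myb 1. None of these held GATA letters, and Ikzf1 held 1 SOX match. A link between matches and change was not tested. GATA letters were in 9.99% and CACCC letters in 52% of all windows. Gene counts do not tell which start of Sox6 or Chd4 was used.

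Assigned counts per library ran between 6749196 and 7216333. Genes with a count numbered 16892 and 16479 in Med16 KO and 18947 and 19016 in Med16 fl/fl. Reads not aligned were 2.69% and 3.27% in Med16 KO and 1.05% and 0.826% in Med16 fl/fl. Reads without a unique alignment were 24.3% and 23.6% in Med16 KO and 26.4% and 25.3% in Med16 fl/fl. Ambiguous reads were 2.96% and 2.93% in Med16 KO and 2.54% and 2.58% in Med16 fl/fl. These differences follow the genotype, and their part in the values below was not tested. Med16 counts were 16 and 30 in the Med16 KO libraries and 164 and 127 in the Med16 fl/fl libraries, so the targeted gene followed the labels (log2 fold change -2.64, SE 0.34, adjusted p = 4.6e-05). Libraries of a genotype differed by more than sampling noise, with a chi-square per degree of freedom over genes of 6.63 between the Med16 KO libraries and 2.73 between the Med16 fl/fl libraries, so each was counted as 1 replicate. Erythroid identity markers were abundant, with summed levels of 29760 and 29900 CPM (counts scaled to a common library size, with TMM factors) in Med16 KO and 37390 and 37350 CPM in Med16 fl/fl. RNA of other marrow cells was also present: neutrophil markers summed to 21000 and 21460 CPM in Med16 KO and 15090 and 14920 CPM in Med16 fl/fl. In bulk RNA, fewer cells of a type and less RNA per cell cannot be told apart.

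Of the 9 genes, 4 fell in Med16 KO (Sox6, Nr2c2, Mbd2 and Zbtb7a), 1 rose (Chd4) and 4 were not past the threshold (Bcl11a, Myb, Ikzf1 and Nr2c1), taken as a Benjamini-Hochberg adjusted p under 0.05 in edgeR's quasi-likelihood test over 13052 genes. Of all genes tested, 9.89% were called lower and 8.5% higher. The median log2 fold change of the 9 genes was -0.03, against 0.017 over all genes tested. The genotypes did not overlap in CPM for 6 of the 9 genes, against 57.6% of all genes tested. Without Med16 fl/fl library 1 or 2 the lower count was 2 or 1 and the higher count 0, and without Med16 KO library 1 it was 2 lower and 2 higher. With scaling by library size alone Sox6 was the 1 gene called lower, and with a GC content offset 3 were lower and 0 higher. Of the 7 DNA-binding genes, 3 fell and 0 rose in edgeR's test, with the same numbers at an unadjusted p under 0.05, and 0 of them rose in the DESeq2 test.

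**Figure D1:**
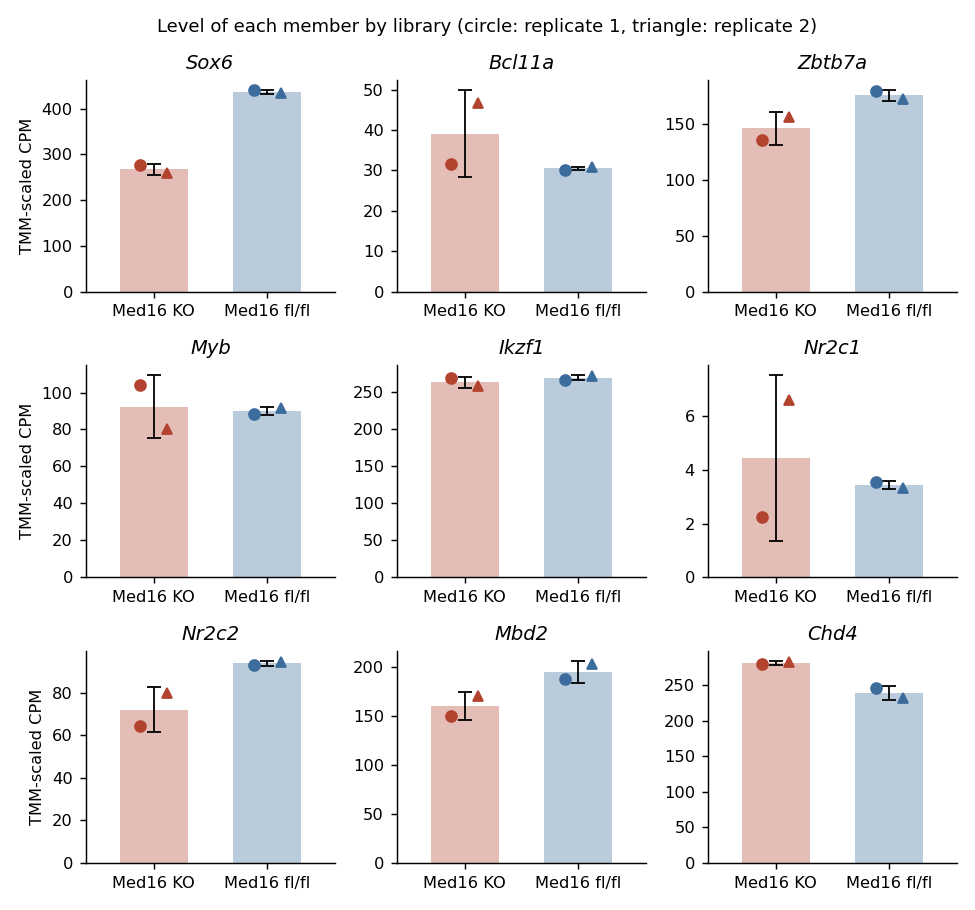
Level of each of the 9 genes in TMM-scaled CPM, with Med16 KO on the left of each panel and Med16 fl/fl on the right. Bars are means of 2 libraries, error bars are SD, circles are replicate 1 and triangles replicate 2; Sox6 is at 277 and 260 CPM in Med16 KO, below 440 and 434 CPM in Med16 fl/fl, while the Med16 KO libraries lie far apart for Bcl11a and Nr2c1.

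Sox6 (ENSMUSG00000051910, chromosome 7), which encodes an SRY-box factor that represses Hbb-y in definitive erythroid cells, had the largest change. It had 1975 and 1770 counts in the Med16 KO libraries and 3118 and 3004 counts in the Med16 fl/fl libraries. Both Med16 KO libraries were far below both Med16 fl/fl libraries, and the libraries of each genotype lay close together. Sox6 fell to 268 ± 11.97 CPM in Med16 KO, against 437 ± 4.10 CPM in Med16 fl/fl (SD, n = 2 each), or 61.3% of the Med16 fl/fl level. Its log2 fold change was -0.71 (SE 0.06, 95% interval -0.83 to -0.58, adjusted p = 4.5e-07), and 7.39% of the genes tested had a lower one. The fall was called under 11 of 12 alternative settings, with log2 fold changes between -0.76 and -0.63. It ended only with an assumed biological coefficient of variation (BCV) of 0.2 for every gene (SE 0.29, likelihood ratio test, adjusted p = 0.16). Under that assumption none of the 9 genes was called. The BCV is the spread between replicates as a share of the level. Its common estimate over genes was 0.125, but the main test used a spread estimated for each gene.

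Erythroid identity markers fell alongside Sox6. Of 14 such genes tested, 13 were lower and 1 higher in Med16 KO, with a median log2 fold change of -0.61, and 5 of the 14 had a lower log2 fold change than Sox6. With an assumed BCV of 0.2, 1 of the 14 was lower and 0 higher, and with a GC content offset 13 were lower and 0 higher. The transferrin receptor gene Tfrc was at -1.02 and the band 3 gene Slc4a1 at -0.41. The part of this shift in the fall of Sox6 was not tested. Likeness of profiles was taken as the root mean square difference of centred log2 CPM over the 4 libraries. Among 5932 candidates, the genes closest to Sox6 were Hace1, Paqr9 and Fhdc1, at 0.014, 0.014 and 0.021. Such distances, here and below, rest on 4 values per gene and only describe likeness. Shared regulation was not tested.

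Zbtb7a (ENSMUSG00000035011, chromosome 10), which encodes the zinc finger repressor LRF, fell slightly. It had 971 and 1069 counts in Med16 KO and 1272 and 1194 counts in Med16 fl/fl. The highest Med16 KO library stayed below the lowest Med16 fl/fl library, at 157 against 173 CPM. Means were 146 ± 14.7 CPM in Med16 KO and 176 ± 4.89 CPM in Med16 fl/fl (SD, n = 2 each), a log2 fold change of -0.27 (SE 0.08, 95% interval -0.45 to -0.09, adjusted p = 0.038). Its transcripts are rich in G and C, at 61.6%, and with a GC content offset the log2 fold change was -0.55 (adjusted p = 0.00022). The call ended with scaling by library size alone (-0.21, adjusted p = 0.088), without Med16 KO library 1 (-0.18, 0.081), and without Med16 fl/fl library 1 (-0.25, 0.26) or 2 (-0.30, 0.13). Without Med16 KO library 2 the log2 fold change was -0.39 (4.4e-05).

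Nr2c2 (ENSMUSG00000005893, chromosome 6), which encodes TR4, fell while Nr2c1, which encodes its partner TR2, was low and its Med16 KO libraries differed from each other. Nr2c2 had 461 and 544 counts in Med16 KO and 659 and 655 counts in Med16 fl/fl. Both Med16 KO libraries were lower than both Med16 fl/fl libraries, with means of 72.2 ± 10.8 CPM in Med16 KO and 93.9 ± 1.19 CPM in Med16 fl/fl (SD, n = 2 each). The log2 fold change was -0.38 (SE 0.11, 95% interval -0.62 to -0.14, adjusted p = 0.031). It was called under 6 of 12 alternatives: the call ended with scaling by library size alone (-0.33, adjusted p = 0.056), with a GC content offset (-0.26, 0.16), with the assumed BCV of 0.2, without Med16 KO library 1 (-0.25, 0.07), and without Med16 fl/fl library 1 (-0.41, 0.13) or 2 (-0.38, 0.2). The ribosomal protein gene Mrps25 overlaps 30.7% of the exon length of Nr2c2 on the opposite strand. The strand setting of the counting was not given. Whether reads in that overlap were counted for Nr2c2, for Mrps25 or for neither is therefore not known. Mrps25, at a log2 fold change of -0.23, missed the threshold (adjusted p = 0.319).

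Nr2c1 (ENSMUSG00000005897, chromosome 10) had 16 and 45 counts in Med16 KO and 25 and 23 counts in Med16 fl/fl. The Med16 KO libraries lay on either side of the Med16 fl/fl libraries, with exact Poisson 95% intervals of 9.15 to 26.0 and 32.8 to 60.2 counts that do not overlap. Its log2 fold change of 0.36 had a 95% interval of -0.83 to 1.56 (adjusted p = 0.73), which spans both signs. It was 0.93 without Med16 KO library 1 and -0.62 without Med16 KO library 2.

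Bcl11a (ENSMUSG00000000861, chromosome 11), the zinc finger repressor gene, was low and its Med16 KO libraries differed from each other. It had 225 and 319 counts in Med16 KO and 214 and 213 counts in Med16 fl/fl. Med16 KO library 2 stood at 46.8 CPM, above the other 3 libraries, while Med16 KO library 1 at 31.5 CPM lay just above the Med16 fl/fl libraries at 30.2 and 30.8 CPM, so the genotypes did not overlap. Their exact Poisson 95% intervals, which cover counting error only, were 197 to 256 counts in Med16 KO library 1 and 285 to 356 counts in Med16 KO library 2. The log2 fold change was 0.36 (SE 0.19, 95% interval -0.04 to 0.76, adjusted p = 0.22), not past the threshold. It was 0.60 and called higher without Med16 KO library 1 (adjusted p = 0.0013), and 0.03 without Med16 KO library 2 (0.92).

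Myb and Ikzf1 were not past the threshold, and their intervals were narrower than those of Bcl11a and Nr2c1. Myb (ENSMUSG00000019982, chromosome 10) had 745 and 548 counts in Med16 KO and 627 and 634 counts in Med16 fl/fl. The Med16 KO libraries lay above and below the Med16 fl/fl pair, at 104 and 80.4 CPM against 88.5 and 91.7 CPM. The log2 fold change of Myb was 0.04 (SE 0.12, 95% interval -0.21 to 0.29, adjusted p = 0.88), with -0.18 without Med16 KO library 1 and 0.20 without Med16 KO library 2. The antisense gene Gm26577 overlaps 6.26% of the exon length of Myb, and whether reads there were counted for Myb is likewise not known. Ikzf1 (ENSMUSG00000018654, chromosome 11) had 1918 and 1762 counts in Med16 KO and 1892 and 1880 counts in Med16 fl/fl. All 4 libraries of Ikzf1 lay between 259 and 272 CPM. Its log2 fold change was -0.03 (SE 0.06, 95% interval -0.16 to 0.10, adjusted p = 0.78), so a change as large as that of Sox6 lies outside the interval of Ikzf1 and of Myb. The nearest profiles to Ikzf1 were those of Snx2, Dnaja2 and Ubap2, at root mean square differences of 0.0067, 0.0092 and 0.011.

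The chromatin cofactors moved in opposite directions. Chd4 (ENSMUSG00000063870, chromosome 6), the ATPase subunit of NuRD, had 2000 and 1935 counts in Med16 KO and 1743 and 1605 counts in Med16 fl/fl. Both Med16 KO libraries were above both Med16 fl/fl libraries, with means of 282 ± 2.67 CPM in Med16 KO and 239 ± 9.89 CPM in Med16 fl/fl (SD, n = 2 each). The rise was small, at a log2 fold change of 0.24 (SE 0.06, 95% interval 0.10 to 0.37, adjusted p = 0.015), and was not called with a GC content offset (0.14, 0.15) or without Med16 fl/fl library 1 (0.27, 0.076) or 2 (0.19, 0.33). The profiles nearest to Chd4 were those of Msn, Htra2 and Atp6ap2, at root mean square differences of 0.0096, 0.01 and 0.01.

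Mbd2 (ENSMUSG00000024513), which encodes a methyl-CpG reader, had 1070 and 1161 counts in Med16 KO and 1327 and 1403 counts in Med16 fl/fl. Both Med16 KO libraries were lower than both Med16 fl/fl libraries, with means of 160 ± 14.5 CPM in Med16 KO and 195 ± 10.99 CPM in Med16 fl/fl (SD, n = 2 each). Mbd2 fell by 0.29 on the log2 scale (SE 0.08, adjusted p = 0.024), a call that ended with scaling by library size alone (-0.23, 0.057) and without Med16 fl/fl library 2 (-0.24, 0.3). With a GC content offset it was -0.41 (0.0026).

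**Figure D2:**
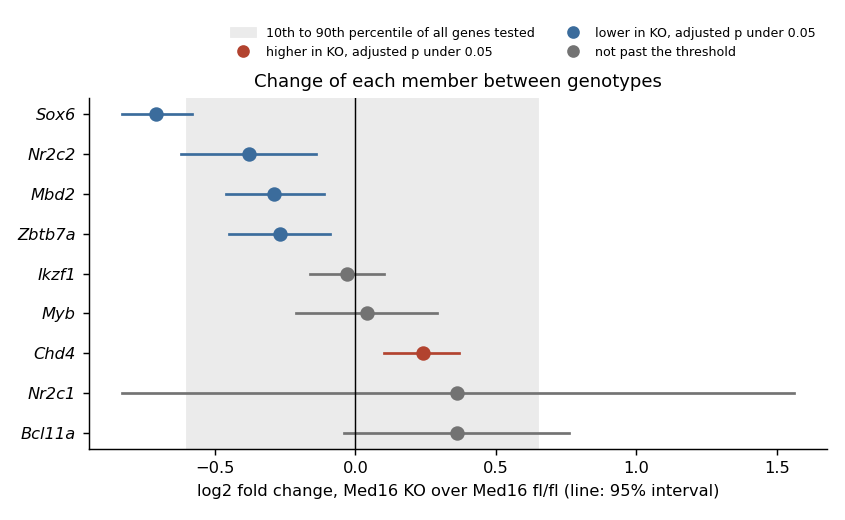
log2 fold change of Med16 KO over Med16 fl/fl for each of the 9 genes on the x axis, with its 95% interval as a line; blue points are called lower, red higher and grey points are not past the threshold. The shaded band spans the 10th to 90th percentile of all genes tested (-0.60 to 0.65), and only the point of Sox6 lies outside it.

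Compared per kilobase of exon, Mbd2 was the most abundant of the 9 genes in both genotypes, at 49.8 ± 4.5 CPM per kb in Med16 KO and 60.7 ± 3.42 CPM per kb in Med16 fl/fl. By CPM alone, Sox6, Chd4 and Ikzf1 stood above Mbd2 in both genotypes. The order per kb depends on the length of all annotated exons merged, 3.214 kb for Mbd2 and 14.83 kb for Sox6. Ikzf1 followed at 45.6 ± 1.24 and 46.6 ± 0.581 CPM per kb in the same genotypes. In Med16 KO, Chd4 (35.2), Zbtb7a (21.5) and Sox6 (18.1) came next, whereas in Med16 fl/fl the libraries of Chd4 (29.8) and Sox6 (29.5) overlapped and stood above Zbtb7a (25.9). Myb, Nr2c2, Bcl11a and Nr2c1 came last in this order in both genotypes, with Bcl11a at 2.97 ± 0.82 in Med16 KO and 2.32 ± 0.0316 CPM per kb in Med16 fl/fl. Apart from Chd4 and Sox6 in Med16 fl/fl, the libraries of neighbours in the order did not overlap within a genotype.

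**Figure D3:**
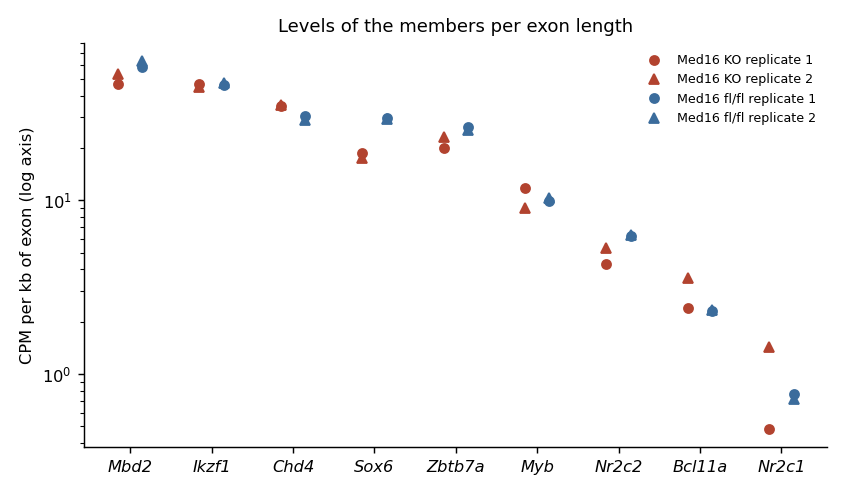
Levels per exon length, in CPM per kb on a log axis, for the 9 genes in order of their Med16 fl/fl mean; red marks the Med16 KO libraries and blue the Med16 fl/fl libraries. Points span from 0.486 CPM per kb for Nr2c1 in Med16 KO library 1 to 63.1 CPM per kb for Mbd2 in Med16 fl/fl library 2. Sox6 drops below Zbtb7a in Med16 KO.

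Ratios of levels per kb within a library set related genes side by side. Sox6 stood at 7.8 and 4.93 times the Bcl11a level in the Med16 KO libraries and at 12.9 and 12.5 times in the Med16 fl/fl libraries. MBD2 and MBD3 form alternative NuRD complexes, and Mbd2 stood at 1 and 1.12 times the Mbd3 level in Med16 KO and at 1.74 and 2.21 times in Med16 fl/fl. Neither pair of ratios overlapped between genotypes, and the exact permutation test over 4 libraries gave its smallest possible two-sided p of 0.33 for both. The ratio of Chd4 to its paralog Chd3 was 6.14 and 5.11 in Med16 KO and 6.12 and 5.91 in Med16 fl/fl, which overlap. Nr2c2 to Nr2c1, at 8.89 and 3.73 in Med16 KO and 8.13 and 8.78 in Med16 fl/fl, overlapped too. So did Myb to Mybl2, at 0.287 and 0.234 in Med16 KO and 0.263 and 0.289 in Med16 fl/fl.

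The other NuRD subunits went both ways. Of 14 subunits tested, Mbd2 and Chd4 included, 3 were higher, 2 lower and 9 not past the threshold, with a median log2 fold change of 0.03. Mbd3, the subunit that takes the place of MBD2, had 660 and 639 counts in Med16 KO and 471 and 392 counts in Med16 fl/fl. It rose by a log2 fold change of 0.60 (SE 0.11, adjusted p = 0.0014), called neither with a GC content offset (0.31, 0.071) nor without Med16 fl/fl library 2 (0.48, 0.067). The histone-binding subunit gene Rbbp4 fell by 0.37 on the log2 scale (SE 0.06, adjusted p = 0.00027), and Cdk2ap1, named after its value was seen, was higher at 0.42 (0.022). The higher count was 0 with a GC content offset or an assumed BCV of 0.2, 1 without Med16 fl/fl library 1 and 0 without Med16 fl/fl library 2. The lower count was 0 with an assumed BCV of 0.2 and 1 with scaling by library size alone or without Med16 fl/fl library 2.

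Other corepressors with reported roles at globin loci also split, with 2 of 20 higher, 3 lower and a median of 0.09. Ehmt2, which encodes the H3K9 methyltransferase G9a, was higher at 0.65 (SE 0.11, adjusted p = 0.0008). The remodeller gene Smarca5 was lower at -0.27 (0.028), a call lost with scaling by library size alone (-0.21, 0.088), with a GC content offset (-0.06, 0.67) and without Med16 fl/fl library 2 (-0.27, 0.07) or Med16 KO library 2 (-0.15, 0.088). The lower genes Rcor1 (-0.30) and Cbx3 (-0.27) were named after their values were seen. The maintenance methyltransferase gene Dnmt1, the most abundant, was at -0.17 and not past the threshold (0.058), but was past it under 6 of 12 alternatives, such as DESeq2 size factors (-0.18, 0.045). The lower count was 0 with scaling by library size alone, 1 with a GC content offset, 1 without Med16 fl/fl library 1, 0 without Med16 fl/fl library 2, and 5 with the replicate block or the DESeq2 test. The higher count was 1 with a GC content offset or without Med16 fl/fl library 2, and both counts were 0 with an assumed BCV of 0.2.

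Other regulators of globin switching were more often lower than higher. Of 19 tested, 10 were lower and 0 higher in Med16 KO in edgeR's test, with a median of -0.29. At an unadjusted p under 0.05, 12 were lower and 0 higher, the DESeq2 test also called 0 higher, and 1 was higher when either Med16 KO library was left out. With an assumed BCV of 0.2, 0 were lower (Klf1 adjusted p = 0.26). Klf1, an activator of adult beta-globin and of Bcl11a, fell by 0.60 on the log2 scale (SE 0.05, adjusted p = 4.9e-07). The LIM-domain partner gene Lmo2 fell by 0.56 (1.7e-06), as did Foxo3 (1.2e-06), and Tal1 fell by 0.34 (6.9e-05). This list shares 2 genes, Klf1 among them, with the erythroid identity markers, which fell as a list. Lmo2 is also among the stem and early progenitor markers. Among genes of fetal programmes, Lin28a had 89 and 50 counts in Med16 KO and 46 and 72 counts in Med16 fl/fl, which overlap. Igf2bp2 had 9 and 6 counts in Med16 KO and 2 and 2 counts in Med16 fl/fl, and Igf2bp3 had 0 and 3 counts in Med16 KO and 11 and 3 counts in Med16 fl/fl, both too low to be tested. Nr2f2, Lin28b and Igf2bp1 had no count in any library, which allows up to 3 counts per library, or 0.4157 to 0.4445 CPM of assigned counts.

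Among paralogs of the 9 genes, 2 of 15 tested were higher (Mbd3 and Zbtb7b) and 1 lower (Ikzf5, at -0.38, adjusted p = 0.021). Zbtb7b was at 0.41 (0.048) and lost its call with DESeq2 size factors, the DESeq2 test, no filter, either offset, a BCV of 0.2, or either Med16 fl/fl library left out; Ikzf5 lost its call with a GC content offset, a BCV of 0.2, or either Med16 fl/fl library left out. Without Med16 KO library 1, 4 paralogs were higher and 2 lower, and without Med16 fl/fl library 2 none was called. Mybl2, the most abundant paralog, was at 0.11 (0.34), not past the threshold, and at -0.07 with a GC content offset.

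Genes reported as MYB targets went both ways while Myb itself was not past the threshold. Of 15 tested, 7 were higher and 4 lower, and the median was 0.34. The counts were 4 higher without Med16 fl/fl library 2, and 4 higher and 0 lower with an assumed BCV of 0.2. The rises include Mpo (1.29), Elane (1.01) and Prtn3 (0.99), which are also neutrophil granule genes. Leaving those 3 out, 4 of 12 were higher and 4 lower, with a median of 0.06. Among these, the stem cell factor receptor gene Kit was higher at 0.68 (SE 0.16, adjusted p = 0.0074), a call lost without Med16 fl/fl library 1 (0.61, 0.14) or 2 (0.72, 0.065), while Klf1 and Lmo2 were lower.

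**Figure D4:**
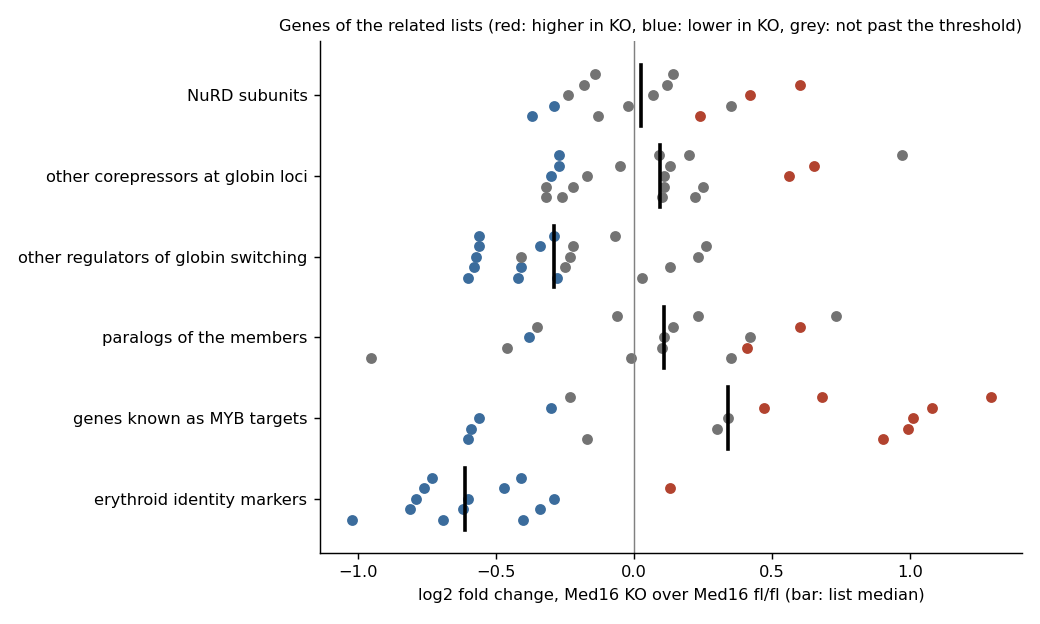
Each point is a tested gene of a related list, with its log2 fold change of Med16 KO over Med16 fl/fl on the x axis; red is called higher, blue lower and grey is not past the threshold, and the black bar is the median of the list. Erythroid identity markers (median -0.61) and other regulators of globin switching (-0.29) lie mostly to the left of 0, and NuRD subunits (0.03) lie on both sides.

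Embryonic globin transcripts, the targets of these repressors, were near the floor in both genotypes. Hbb-y had 5 and 7 counts in Med16 KO and 9 and 4 counts in Med16 fl/fl. Hbb-bh1 had 5 and 0 counts in Med16 KO and 0 and 1 counts in Med16 fl/fl, and Hba-x had 6 and 0 counts in Med16 KO and 1 and 3 counts in Med16 fl/fl. Hbb-bh0 and Hbb-bh2 had none. No embryonic globin gene passed the filter on low counts. Together they took 0.00023% and 0.000104% of assigned counts in Med16 KO and 0.000139% and 0.000114% in Med16 fl/fl, which overlap (exact permutation test, two-sided p = 1.000, where the smallest possible is 0.33). A difference was not detectable at counts this low. The exact Poisson 95% intervals of the summed counts ran between 2.81 and 26.0 in Med16 KO and between 3.45 and 18.4 in Med16 fl/fl.

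Adult globin genes took 16.5% and 17.3% of assigned counts in Med16 KO and 16.2% and 16.2% in Med16 fl/fl (two-sided p = 0.33 by exact permutation, no smaller value being possible). Of 6 adult globin genes tested, Hba-a2 (0.44) and Hba-a1 (0.21) were higher and Hbb-bs lower (-0.17), and the lower count was 2 or 3 under 8 of 12 alternatives. With an assumed BCV of 0.2 none was called. The call of Hba-a1 ended with the DESeq2 test (0.20, adjusted p = 0.078) and, with the sign turned, with a GC content offset (-0.02, 0.74). These genes have near-identical copies, so their counts are uncertain.

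Markers of other marrow cells that express some of the 9 genes were measured beside them. Bcl11a, Ikzf1 and Myb are also expressed in B cell precursors, and 1 of 16 tested B lineage markers was higher in Med16 KO (Cd79a, 0.46) and 0 lower in edgeR's test. At an unadjusted p under 0.05, 1 was higher and 2 lower, and the DESeq2 test called 0 lower. B lineage markers summed to 384 and 390 CPM in Med16 KO and 388 and 402 CPM in Med16 fl/fl, and they overlapped. Single markers did not all follow the sum. Of 18, both Med16 KO libraries were below both Med16 fl/fl libraries for 8 (Pax5, Ebf1, Vpreb1, Vpreb3, Igll1, Rag1, Rag2 and Fcrla). They were above for 4 (Cd79a, Blk, Blnk and Pou2af1). Over all genes tested, the genotypes did not overlap in CPM for 57.6%, in either direction. Rag2, with 0 and 0 counts in Med16 KO and 7 and 8 counts in Med16 fl/fl, was too low to be tested, and the other 7 of the 8 were not past the threshold. With the replicate block 2 were lower. Among them Rag1 had 132 and 55 counts in Med16 KO and 165 and 174 counts in Med16 fl/fl, at -0.86 and not past the threshold (adjusted p = 0.055). Without Med16 KO library 1, the setting in which Bcl11a was called, 3 B lineage markers were higher and 3 lower. Bcl11a is also high in plasmacytoid dendritic cells, whose 10 markers summed to 231 and 223 CPM in Med16 KO and 200 and 206 CPM in Med16 fl/fl, with 1 higher (Irf8, 0.50). The direction of this sum was carried by Irf8, at 89.2 and 89.6 CPM in Med16 KO and 63.8 and 62.6 CPM in Med16 fl/fl. When either Med16 fl/fl library was left out, neither Cd79a nor Irf8 was called, and without Med16 KO library 2 the dendritic cell count was 2. Of 8 T and NK cell markers tested, 0 were called by edgeR or DESeq2, with 1 higher and 1 lower at an unadjusted p under 0.05, and 2 were lower without Med16 KO library 2. Of these B, dendritic and T cell markers none was at 0 in all libraries.

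Of 14 stem and early progenitor markers tested, where Myb is high, 4 were higher and 1 lower (Lmo2), with 2 higher without Med16 fl/fl library 1, 0 without Med16 fl/fl library 2, and 2 lower without Med16 KO library 1. They summed to 889 and 826 CPM in Med16 KO and 922 and 941 CPM in Med16 fl/fl, a direction carried by Lmo2. Without Lmo2, left out after its value was seen, they summed to 531 and 472 CPM in Med16 KO and 404 and 410 CPM in Med16 fl/fl, and the median log2 fold change of the whole list was 0.49. Neutrophil markers were higher for 15 of 17 genes tested (4 with an assumed BCV of 0.2), megakaryocyte and platelet markers for 11 of 15, and monocyte and macrophage markers for 5 of 16 with 2 lower. Without Med16 fl/fl library 1 or 2, 7 or 6 megakaryocyte and platelet markers were higher and 0 monocyte and macrophage markers lower. With an assumed BCV of 0.2, 2 stem and early progenitor markers, 10 megakaryocyte and platelet markers and 1 monocyte and macrophage marker were higher, and 0 of these lists lower. Megakaryocyte and platelet markers summed to 689 and 688 CPM in Med16 KO and 489 and 469 CPM in Med16 fl/fl, with Gp1bb at 0 in all libraries. Monocyte and macrophage markers summed to 3540 and 3576 CPM in Med16 KO and 2666 and 2581 CPM in Med16 fl/fl. Most of each sum was Lyz2, at 2428 and 2474 CPM in Med16 KO and 1731 and 1664 CPM in Med16 fl/fl, and 9 of the 16 markers were not past the threshold. The part of these cells in the values of the 9 genes was not tested.

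**Figure D5:**
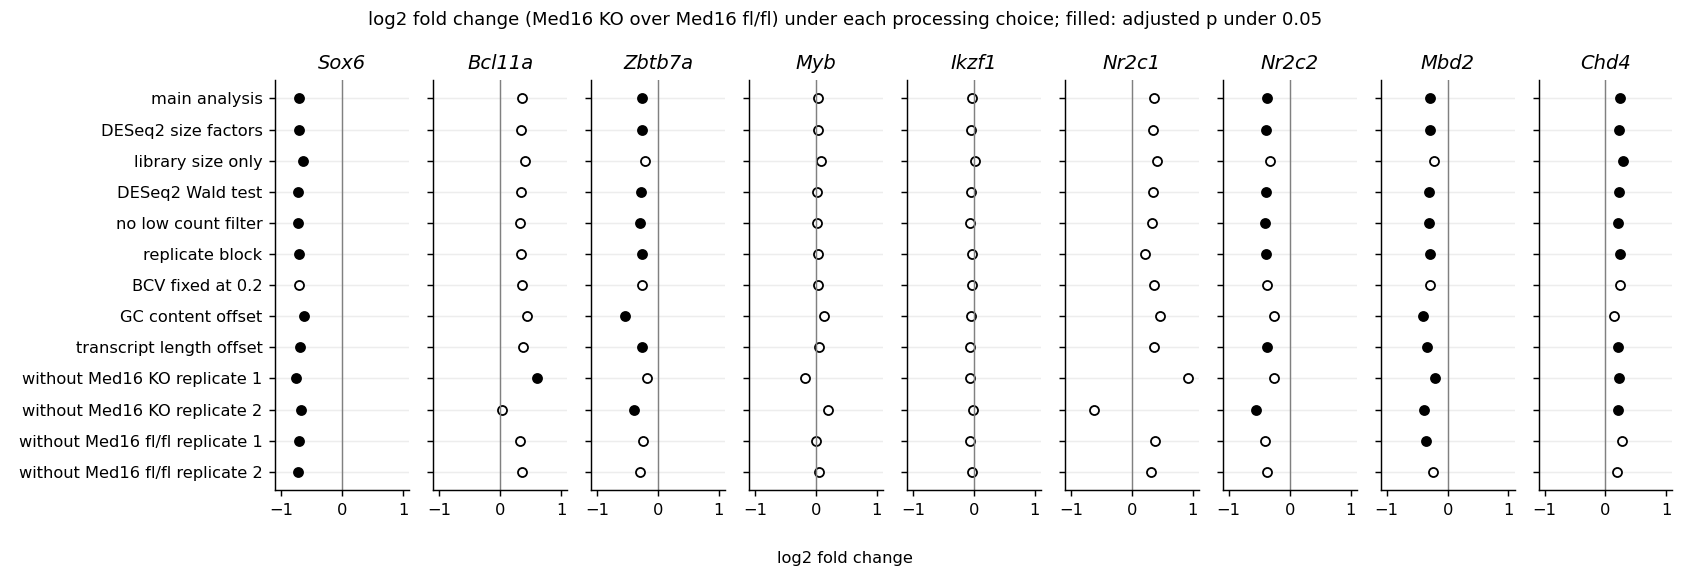
log2 fold change of Med16 KO over Med16 fl/fl on the x axis for each of the 9 genes under the main analysis and 12 alternatives; filled points have an adjusted p under 0.05. Sox6 stays between -0.76 and -0.63, and Nr2c1, Bcl11a and Myb shift with the Med16 KO library left out.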

How the data were processed

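Poly(A) RNA of 2 Med16 KO and 2 Med16 fl/fl libraries of Ter119+ bone marrow cells was compared. The authors deposited raw counts for each gene. The submitters' processing notes name HISAT2 2.1.0, FastQC 0.11.7, HTSeq 0.12.4, HOMER, DESeq2 and build GRCm39; no strand setting or annotation release was found in the labels or tables. Rows that name no gene (67.3% to 67.7% of reads) entered neither library sizes nor tests.

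Counts were filtered with filterByExpr, scaled by TMM and tested with edgeR 4.0.16 in R 4.3.3 (quasi-likelihood, genotype as the only term, two-sided, Benjamini-Hochberg adjustment over 13052 genes). The BCV was estimated at 0.125, on 2 residual plus 13.1 prior degrees of freedom. The SE is the log2 fold change divided by the square root of F. At these depths 1 count is 0.139 to 0.148 CPM. Intervals of counts cover counting error only. Exon lengths, GC content and overlaps came from GENCODE M21 (GRCm38), which gave values for 98.4% of the genes tested.

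Genes and lists were chosen with earlier results of these data known. Named were Med16, the 9 genes, embryonic globins, and from each list the 3 genes with the smallest adjusted p and the most abundant by CPM. For the 3 of the 9 genes with the highest mean CPM, the 3 tested genes (at least 20 CPM) with the closest profile were also named. Named outside this rule are overlapping genes, Chd3 (as the paralog of Chd4 in a ratio), the fetal programme and B lineage genes listed with their counts or order, genes with no count and those said to be chosen after their values were seen. The alternatives were DESeq2 1.42.0, its size factors, library size only, no filter, a replicate block, a BCV of 0.2, GC and length offsets, and leaving out each library. The procedure was tested on simulated counts. Some genes that this rule names are not reported here.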

Additional observations from a re-analysis of the deposited data

How the results depend on the processing

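Of 612 values of 51 named genes under 12 alternatives, 516 kept their direction and side of the threshold, 73 lost and 17 gained a call, and 6 turned sign: Ikzf1 was 0.02 with scaling by library size alone, Myb -0.18 without Med16 KO library 1 and -0.00 without Med16 fl/fl library 1, Nr2c1 -0.62 without Med16 KO library 2 (0.93 without library 1), and Hba-a1 -0.02 and Mybl2 -0.07 with a GC content offset. None of these was called under the alternative. Of the 9 genes, the main analysis called 1 higher and 4 lower. With a BCV of 0.2 these counts were 0 and 0, with scaling by library size alone 1 gene was lower, and with a GC content offset 0 were higher. Leaving out 1 library gave 0 to 2 higher and 1 to 4 lower. Over all genes, 1109 were higher and 1291 lower, against 331 and 289 with a BCV of 0.2, and 454 to 1839 higher and 704 to 2172 lower without 1 library. Such fits take their spread from the genotype that keeps 2 libraries. With library size as the only scaling 56.4% of calls were higher, against 46.2% in the main analysis. The share of embryonic globin counts in Med16 KO minus Med16 fl/fl was 4.1e-05 percentage points, and -2.2e-05 to 0.0001 without 1 library, the negative value being without Med16 KO library 1. With the replicate number as a replicate block, 1268 genes were higher and 1499 lower, and the same 1 and 4 of the 9 genes were called. Same-numbered libraries did not deviate together (correlation across genes -0.0117) and share only a number. The cause of these shifts was not tested. The embryonic globin genes did not pass the filter on low counts, and for Nr2c1 the Med16 KO libraries differed by more than counting error.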
